A study of Triticum aestivum with 6 samples.

Results

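Aleurone and starchy endosperm of wheat grain at 14 days post anthesis (DPA) were compared as a pair of RNA-seq libraries, the latest of 3 stages in a series of 6 libraries. The pair was taken by its labels, 1 library of aleurone and 1 of starchy endosperm, and every one of the 221925 sequences counted by the authors entered the comparison. The plant was bread wheat, Triticum aestivum, of the cultivar Banks, and no treatment or genotype contrast is labelled. Each preparation pooled microdissected tissue of a minimum of 5 seeds, taken from 3 spikes on 3 plants, and the same tissues at 6 and 9 DPA make up the other 4 libraries. Because each side is 1 pooled library, the spread between pools is unknown. The text gives both values and an exact 95% interval of their ratio that covers counting error alone, and no p-value.

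The endosperm of cereals consists of an outer cell layer, the aleurone, and a large inner mass, the starchy endosperm. During grain filling the starchy endosperm deposits starch and the gluten proteins (gliadins and glutenins), and its cells die as the grain ripens. Aleurone cells fill with oil, minerals and protein bodies, acquire desiccation tolerance, and stay alive in the dry seed, where on germination they secrete the enzymes that digest the inner store. Bread wheat carries several related genomes, so most genes have close copies.

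The deposited identifiers carry no gene names, and 0 of them matched the reference gene table, so the 8 lists of storage protein, starch, aleurone and other tissue genes (73 symbols) matched 0 sequences. The identity of the tissues could therefore not be checked against marker genes, and no function, position or nucleotide sequence is given for any sequence below. Depth was nearly equal, at 37911327 reads for aleurone against 37502901 for starchy endosperm. The 4 younger libraries held between 4104682 and 30581013. Of the 14 DPA reads, 50.1% in aleurone and 42.8% in starchy endosperm were unique reads by the authors' count. The interval of a share of reads was at most 0.016 percentage points to either side in the 14 DPA libraries and 0.0484 in the others.

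Transcripts of both tissues covered much of the same sequence set. Of all sequences, 116935 had reads in both 14 DPA libraries, 22855 in aleurone alone, 10951 in starchy endosperm alone and 71184 in neither. A ratio was read for the 57919 sequences (26.1% of all) with 50 or more reads in the higher library. These held 97.7% of the aleurone and 98.4% of the starchy endosperm reads. The other sequences were 92822 with between 1 and 49 reads and those without reads.

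At 14 DPA more sequences were far higher in aleurone than in starchy endosperm. With TMM scaling (trimmed mean of M values), which assumes that most sequences are alike between libraries, 9937 sequences (17.2% of those considered) were 4-fold or more higher in aleurone. In starchy endosperm 5886 (10.2%) were higher by that margin, and 27.3% were thus 4-fold apart in one direction or the other. With library totals, which treat the whole of each library as equal, 15019 (25.9%) were 4-fold higher in aleurone against 3979 (6.87%) in starchy endosperm, or 32.8% together. The median log2 ratio of aleurone to starchy endosperm was 0.21 with TMM and 0.90 with library totals, an upward shift of 0.69 for every sequence. The direction in which most sequences leaned was the same with both scalings, and its size was not. In bulk tissue, a lower share of cells that use a gene and less RNA per cell cannot be told apart.

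**Figure D1:**
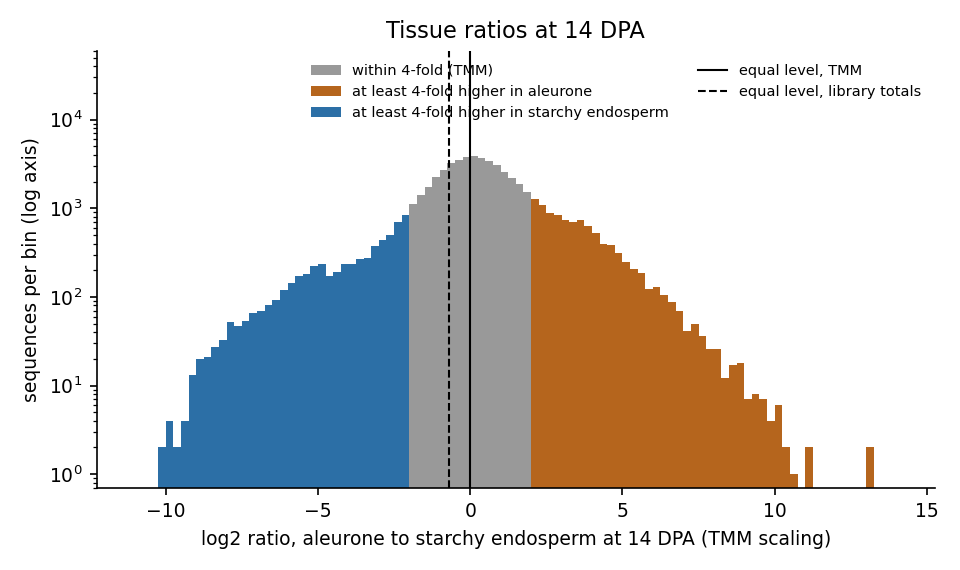
Histogram of the log2 ratio of aleurone to starchy endosperm at 14 DPA for 57919 sequences, in bins of 0.25 log2 units, with TMM scaling and a logarithmic count axis. Colours mark the 9937 sequences at least 4-fold higher in aleurone and the 5886 at least 4-fold higher in starchy endosperm, and the dashed line marks where equal levels lie if library totals are used.

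Because the scalings differ by 1 shift common to all sequences, the 9937 TMM calls in aleurone are by construction among those of library totals, and the 3979 starchy endosperm calls of library totals among those of TMM. Between the 2 scalings the aleurone share of the 4-fold differences went from 62.8% to 79.1%.

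The balance of directions moved with the size of the difference. At 16-fold or more, TMM gave 3021 aleurone and 2262 starchy endosperm sequences. At 64-fold or more it gave 657 and 706, together 2.35% of those considered, so that starchy endosperm sequences were then slightly the more numerous. By level in the higher tissue (RPKM, explained below), these were 49 and 160 under 10 RPKM and 244 and 226 from 10 to 30 RPKM. From 30 to 100 RPKM they were 220 and 156, from 100 to 300 RPKM 78 and 88, from 300 to 1000 RPKM 36 and 54, and above 30 and 22. How far the setting of low counts at 3 reads bore on this order was not tested. With library totals the numbers at 64-fold were 1110 and 434, and aleurone held the majority at each size examined. Beyond 1024-fold stood 13 aleurone and 2 starchy endosperm sequences with TMM, and 28 and 0 with library totals. Within 2-fold of equality lay 47.3% of the sequences with TMM and 40.1% with library totals.

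The histogram had a shoulder on each side, the wider towards starchy endosperm. Counts below 3 reads were set at 3, which limits the ratio of rare sequences. In the other 14 DPA library, 3 reads or fewer were found for 1836 of the 5680 aleurone calls under 10 RPKM. The same held for 423 of the 3029 starchy endosperm calls under 10 RPKM. How far this floor shaped the shoulders was not tested. Between log2 ratios of -4.5 and -4.0 there were 429 sequences, between -5.0 and -4.5 there were 407, and between -5.5 and -5.0 there were 405. The counts then went to 315 and 212 in the following bins of 0.5. On the aleurone side a shorter flat stretch lay nearer to equality, with 1439 sequences from 3.0 to 3.5 and 1377 from 3.5 to 4.0, and the bins from 4.0 to 5.5 held 913, 693 and 452.

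Counting error bore on the calls near the threshold and less on those far from it. The nearer exact 95% limit of the ratio was itself 4 or more for 6801 of the 9937 aleurone sequences (68.4%) and for 4525 of the 5886 starchy endosperm sequences (76.9%). Equality lay outside the interval for every called sequence, the smallest nearer limit being 1.92 in aleurone and 2.38 in starchy endosperm. The read minimum and the fold threshold were applied to the same counts and already ensure this, so it is no separate evidence. The called sequences nearest to the threshold had ratios of 4.0013 and 4.0028, and the nearest uncalled ones 3.9997 and 3.9987. Ratios between 3 and 4 were found for 2725 sequences in the aleurone direction and 2064 in the other, and between 4 and 5 for 1613 and 1051.

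Which tissue was higher depended on how abundant a sequence was. Levels were compared as RPKM, which divides reads by the length of the sequence and by the depth of the library. Among the 10497 sequences under 3 RPKM in the higher library, 17.1% were 4-fold higher in aleurone and 9.20% in starchy endosperm. From 100 to 300 RPKM the 2 directions were close, at 25.9% and 23.7% of 1585 sequences. Among the 197 sequences at 1000 RPKM or more, 27.9% were higher in aleurone against 67.5% in starchy endosperm, with a median log2 ratio of -4.58. With library totals the top class gave 28.9% and 67.5%, and the class from 100 to 300 RPKM 34.1% and 19.7%. The reversal of the balance between the low and the top class was thus present with both scalings.

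**Figure D2:**
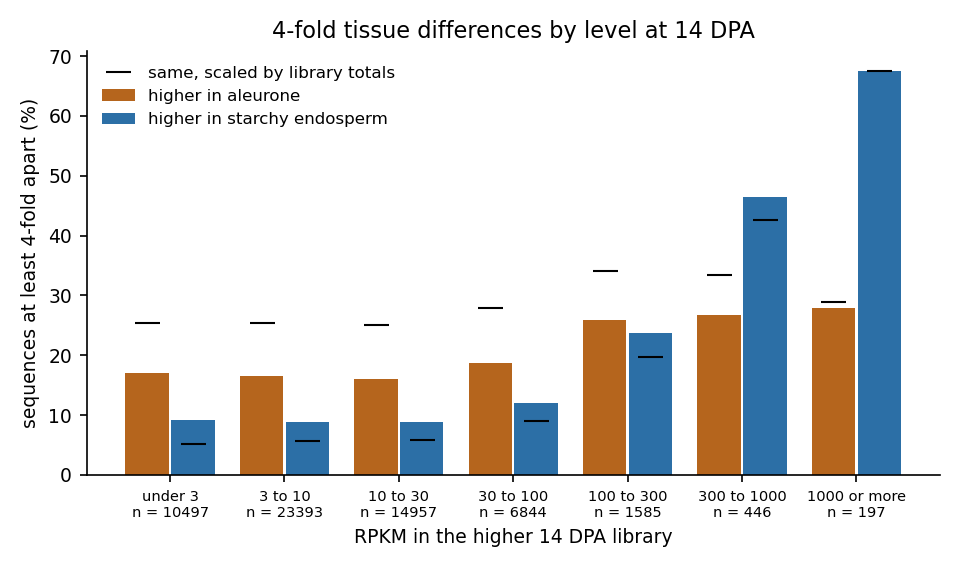
Percentage of sequences at least 4-fold higher in each tissue at 14 DPA (bars, TMM scaling; black dashes, library totals), by RPKM in the higher library, with the number of sequences in each class. Starchy endosperm calls go from 9.20% in the lowest class to 67.5% in the highest, and aleurone calls from 17.1% to 27.9%.

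In shares of its own reads, the starchy endosperm library was built of fewer and more abundant transcripts. It had 138 sequences at 1000 RPKM or more, which took 35.4% of its reads, against 65 sequences and 12.4% in aleurone. Between the libraries the order turned at lower levels. At 10 RPKM or more there were 13575 sequences in starchy endosperm and 21050 in aleurone. RPKM scales by library totals, and these counts were not made with TMM. The 10 most abundant sequences took 8.66% of the starchy endosperm reads and 5.23% of the aleurone reads.

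The most abundant transcripts of the tissues were different ones. Of the 100 sequences with most reads in each library, 3 were shared. The starchy endosperm top 100 held 1.75% of the aleurone reads, and 99 of them differed by 4-fold or more towards starchy endosperm with either scaling. The aleurone top 100 held 3.82% of the starchy endosperm reads, and 79 were at least 4-fold higher in aleurone with TMM (86 with library totals). These lists were chosen for their abundance in 1 of the 2 libraries, so a lean towards that library is built in. In the younger libraries, which did not enter the choice, the starchy endosperm top 100 held 2.88% of starchy endosperm reads at 6 DPA and 12.9% at 9 DPA, against 0.0631% and 0.158% in aleurone. The aleurone top 100 held 0.993% and 0.744% of aleurone reads at those stages, against 1.10% and 2.07% in starchy endosperm. Thus the starchy endosperm top 100 already held a larger share in its own tissue at both stages, whereas the aleurone top 100 did not. The latter list includes sequences not higher in aleurone at 14 DPA, such as TC434009, 20th in aleurone. The 55 sequences 4-fold higher in aleurone at 1000 RPKM or more held 0.261% of aleurone reads at 6 DPA, against 0.0729% in starchy endosperm. At 9 DPA they held 0.105% against 0.129%. By number, 3 of the 55 were 4-fold higher in aleurone at 6 DPA and 18 in starchy endosperm.

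TC385226 (678 bases) was the most abundant sequence of 14 DPA aleurone. It had 373360 reads there against 109 in starchy endosperm, which is 14525 and 4.29 RPKM. The ratio was 2100 (95% interval 1741 to 2558) with TMM and 3388 (2809 to 4127) with library totals. On unique reads, 79995 against 31, it was 1596 (1125 to 2350). At 6 DPA it had no reads in either tissue, and at 9 DPA 0 in aleurone against 11 in starchy endosperm, where the upper limit of the aleurone to starchy endosperm ratio was 0.342. This transcript made up 0.985% of aleurone reads at 14 DPA and had no reads in the 2 younger aleurone libraries.

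TC406083 (675 bases) had the largest aleurone ratio. It had 145941 aleurone reads against 10 of starchy endosperm at 14 DPA, or 5703 and 0.395 RPKM. With TMM the ratio was 8948 (4865 to 18659) and with library totals 14437 (7850 to 30106). The unique reads, 19990 against 4, gave 3091 (1207 to 11347). The younger libraries held 3 and 1 reads in aleurone and 11 and 1 in starchy endosperm, so the tissues could not be told apart at this depth at 9 DPA, where the interval of the ratio ran from 0.0109 to 67.3.

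TC434009 (672 bases) was the most abundant sequence of 14 DPA starchy endosperm and of the whole comparison. It had 681253 reads there and 57174 in aleurone, which is 27032 and 2244 RPKM. Starchy endosperm was 19.4-fold higher (19.3 to 19.6) with TMM and 12.05-fold (11.94 to 12.15) with library totals. It ranked first in starchy endosperm and 20th in aleurone. In the younger grain it had 2246 RPKM in starchy endosperm against 12.7 in aleurone at 6 DPA, and 1840 against 19.96 at 9 DPA. Its ratio was 203 (178 to 231) at 6 DPA and 97.0 (75.4 to 127) at 9 DPA, so the ratio at 14 DPA was the lowest of the 3 although the starchy endosperm level was the highest.

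TC414223 (544 bases) had the largest starchy endosperm ratio, with 2221 reads there against 3 in aleurone at 14 DPA, or 109 against 0.145 RPKM. The ratio was 1208 with a wide interval (413 to 5860) with TMM and 748 (255.8 to 3632) with library totals. Of these reads 84 in starchy endosperm were unique, and 0 in aleurone, which with the latter set at 3 is a ratio of 45.3, with a lower exact limit of 36.0. At 6 DPA it had 70 reads in starchy endosperm and none (0) in aleurone, and at 9 DPA 59 and 2, an interval of 9.11 to 291. TC414223 leaned to starchy endosperm at all 3 stages.

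TC410681 (795 bases) and TC386946 (868 bases) were the most abundant sequences with near-equal levels, taken as a TMM ratio from 0.8 up to its inverse. At 14 DPA TC410681 stood at 1409 RPKM in the aleurone library against 1039 in the other tissue, and TC386946 at 1310 against 921. The aleurone to starchy endosperm ratio of TC410681 was 0.84 with TMM but 1.36 with library totals, and that of TC386946 0.88 and 1.42, so the direction of both turned with the scaling. Neither was even earlier. At 6 DPA TC410681 had 44.2 RPKM in aleurone against 680 in starchy endosperm, and at 9 DPA 135 against 1190. TC386946 had 27.0 against 538, then 70.4 against 590. In all, 9936 sequences lay between these ratios, and 67 of them had 100 RPKM or more in both tissues.

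**Figure D3:**
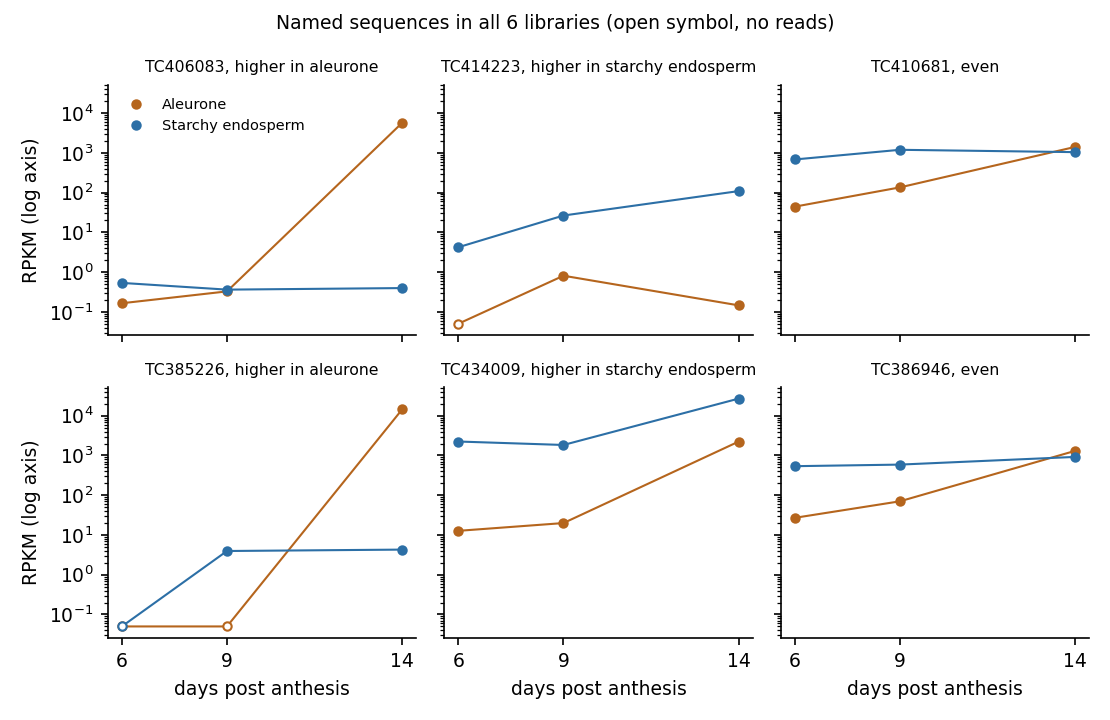
RPKM (logarithmic axis) of the named sequences in aleurone and starchy endosperm at 6, 9 and 14 days post anthesis, 1 library per point, with an open symbol at the foot of the axis where a library had no reads. TC385226 and TC406083 appear in aleurone at 14 DPA, at 14525 and 5703 RPKM, TC414223 and TC434009 are higher in starchy endosperm at each stage, and TC410681 and TC386946 reach near-equal levels at 14 DPA.

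The abundant starchy endosperm transcripts had alike ratios to aleurone. There were 133 sequences at 1000 RPKM or more that were 4-fold higher in starchy endosperm, and they held 34.9% of its reads and 1.81% of the aleurone reads. Their median level was 2308 RPKM there against 133 RPKM in aleurone. The middle 50% of their ratios lay between 23.2 and 47.6, a width of 1.04 log2 units, around a median of 34.5. In aleurone the median sequence of this class thus stood at 2.90% of its starchy endosperm level. Of the 133, 102 lay between 16-fold and 64-fold and 22 beyond. In the class from 30 to 100 RPKM the corresponding width was 2.84 log2 units, with ratios from 4.003 to 983. With library totals the median ratio of the 133 was 21.4, and on unique reads 33.3 (middle 50% from 22.4 to 50.3).

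In the younger grain most of the same 133 sequences were further apart between the tissues, by total reads. Their median ratio was 138 at 6 DPA and 114 at 9 DPA with TMM, and 120 and 109 with library totals. The ratio was higher at 6 than at 14 DPA for 104 of them and higher at 9 than at 14 DPA for 118 (108 and 121 with library totals). Aleurone had 3 reads or fewer for 54 of the 133 at 6 DPA and for 24 at 9 DPA, and ratios of those are floored. Their median level went over 6, 9 and 14 DPA from 55.1 to 751 to 2308 RPKM in starchy endosperm, and in aleurone from 0.244 to 5.95 to 133 RPKM. On unique reads the median ratios were 52.8, 68.0 and 33.3. The middle 50% of these ratios ran from 11.1 to 160 at 6 DPA, from 23.4 to 120 at 9 DPA and from 22.4 to 50.3 at 14 DPA. The lower quartile at 6 DPA was thus below that at 14 DPA. How much starchy endosperm material the 14 DPA aleurone preparation carried was not tested. Against the common range stood single sequences with far larger ratios, up to 558 among the 133 and up to 1100 among the 207 sequences from 300 to 1000 RPKM.

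**Figure D4:**
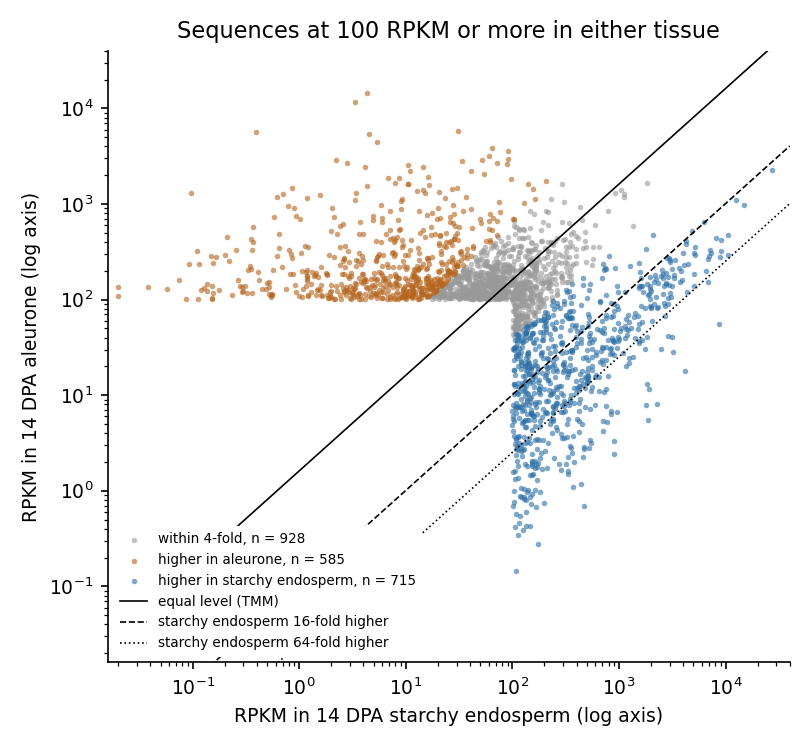
RPKM in 14 DPA aleurone against RPKM in 14 DPA starchy endosperm (both axes logarithmic) for the sequences at 100 RPKM or more in either library, 585 higher in aleurone, 715 higher in starchy endosperm and 928 within 4-fold, each point 1 sequence and points without reads drawn at the edge. The most abundant starchy endosperm sequences run along the 16-fold to 64-fold lines, 102 of the 133 at 1000 RPKM or more, while the aleurone sequences scatter widely.

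The abundant aleurone transcripts spread over a wider range of ratios. The 55 sequences at 1000 RPKM or more that were 4-fold higher in aleurone held 11.3% of its reads and 0.166% of the starchy endosperm reads. Their ratios had a median of 74.8 with TMM and 121 with library totals, and the middle 50% with TMM lay between 30.2 and 293. The width was 3.28 log2 units. Ratios beyond 64-fold were found for 30 of the 55. Median levels were 1648 RPKM in aleurone against 14.4 RPKM in starchy endosperm.

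Few of these 55 had a 4-fold excess in aleurone before, as few of all sequences had. At 6 DPA 3 were 4-fold higher in aleurone and 18 in starchy endosperm, where 9.88% and 11.0% of all sequences considered were, and 22 had 3 reads or fewer in both tissues. At 9 DPA the numbers were 4, 24 and 16, beside 11.7% and 11.6% of all in either direction. Their median level in aleurone was 0 RPKM at 6 DPA and 0.238 at 9 DPA, and in starchy endosperm 0.222 and 5.83. The highest single value in a younger aleurone library was 2358 RPKM, so at least 1 of them was abundant in that tissue from the start. Among the 119 aleurone sequences from 300 to 1000 RPKM, 11 lay on the aleurone side at 6 DPA, close to the 9.88% of all sequences, and 44 on the starchy endosperm side. Of the 133 abundant starchy endosperm sequences, in contrast, 124 had their 4-fold excess in starchy endosperm already at 6 DPA, as did all 133 at 9 DPA.

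Sequences without a read in the other tissue were mostly rare ones. With 50 or more reads in aleurone, 827 had no (0) starchy endosperm reads, which is 8.32% of the aleurone set, and they held 0.417% of aleurone reads. In the other direction 195 had no (0) aleurone reads, 3.31% of the starchy endosperm set and 0.0808% of its reads. The highest count was 4681 in the first group and 1164 in the second. A count of 0 allows 3 reads, which scaled to depth as in RPKM, but without length (RPM), is 0.0791 RPM in aleurone and 0.08 RPM in starchy endosperm. These bounds use library totals. With TMM the scaled library sizes were 39913019 in aleurone and 24470621 in starchy endosperm, so an equal level gives fewer reads in starchy endosperm. How far this bore on the counts of 827 and 195 was not tested. Of the 827, 166 also had no reads in starchy endosperm at 6 and 9 DPA, and of the 195, 52 had none in aleurone at those stages. The matching share of all sequences considered was not worked out, so whether 166 and 52 are many or few is unknown.

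The sets as a whole held very different shares of their tissues. The 9937 aleurone sequences held 32.9% of the aleurone and 1.41% of the starchy endosperm reads at 14 DPA, with median levels of 7.85 and 0.419 RPKM. The 5886 starchy endosperm sequences held 57.5% of starchy endosperm and 4.42% of aleurone reads, with medians of 9.53 and 1.29 RPKM. The 42096 sequences within 4-fold held 60.3% of the aleurone reads and 39.6% of the starchy endosperm reads. Since these sets were chosen on the 14 DPA libraries, these shares describe them and support nothing. In the younger libraries the aleurone set held 18.7% and 21.3% of aleurone reads at 6 and 9 DPA, against 6.402% and 3.50% in starchy endosperm. The starchy endosperm set held 17.3% and 30.7% of starchy endosperm reads, against 3.90% and 4.19% in aleurone.

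The tissue difference of the younger grain is measured in other libraries and shares none with the 14 DPA pair. Of the 9937 aleurone sequences, 2836 (28.5%) were 4-fold higher in aleurone at 6 DPA, where 9.88% of all sequences considered were, and 831 (8.36%) were 4-fold higher in starchy endosperm, where 11.0% of all were. At 9 DPA 2856 (28.7%) met the first and 274 (2.76%) the second, beside 11.7% and 11.6% of all. At both stages 1796 (18.1%) were higher in aleurone, beside 5.36% of all. Of the 5886 starchy endosperm sequences, 2327 (39.5%) had the same direction, by 4-fold, at 6 DPA and 2457 (41.7%) did at 9 DPA. At both they numbered 1583 (26.9%), beside 5.02% of all. The opposite direction was met by 236 (4.01%) at 6 DPA and 260 (4.42%) at 9 DPA. These shares depend on the depth of the younger libraries, as 14.6% of the aleurone set and 12.9% of the starchy endosperm set had fewer than 12 reads in both tissues at 6 DPA, too few for most 4-fold calls. At 9 DPA 44.7% and 29.1% did, so the shares of the 2 sets at that stage are not on an equal footing.

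**Figure D5:**
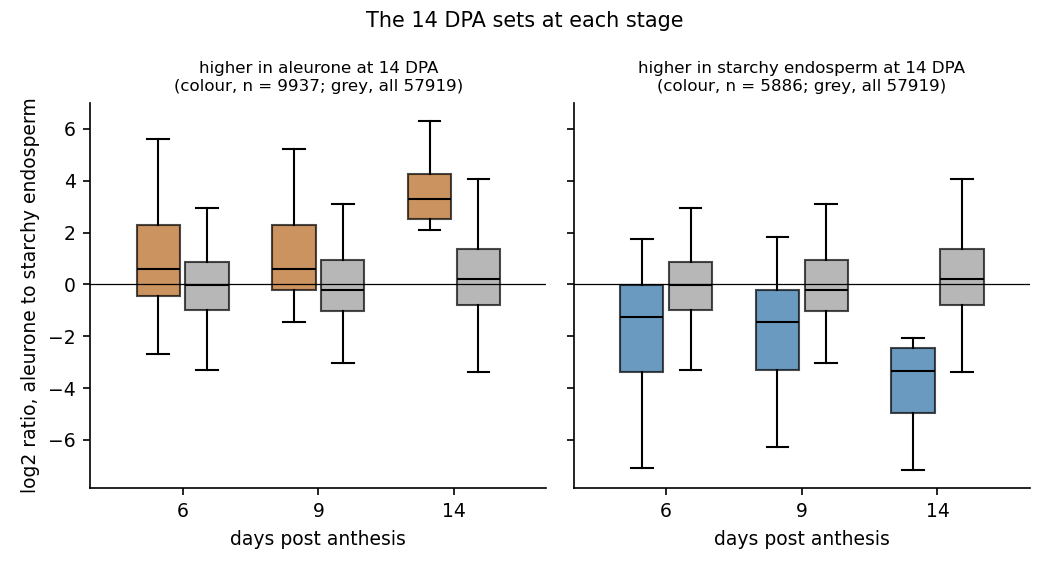
Log2 ratio of aleurone to starchy endosperm at 6, 9 and 14 days post anthesis for the 9937 sequences higher in aleurone at 14 DPA (left), the 5886 higher in starchy endosperm at 14 DPA (right) and all 57919 considered (grey); boxes span the quartiles with the median, whiskers the 5th to 95th percentile of sequences. The 14 DPA boxes are set by the choice of sequences, and at 6 DPA the medians are 0.61 for the aleurone set, -1.27 for the starchy endosperm set and -0.03 for all.

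Weighted by reads, the pattern across stages was unlike in the 2 sets. The starchy endosperm sequences with the same direction, by 4-fold, in both younger pairs made up 47.6% of the 14 DPA starchy endosperm reads, of the 57.5% that the whole set held. The aleurone sequences higher in aleurone at all 3 stages made up 3.75% of the 14 DPA aleurone reads, of 32.9%. Those with fewer than 12 reads in each younger library (1416 sequences) made up 9.02%. For the starchy endosperm set the latter share was 0.35% of its reads (460 sequences). Over all sequences considered, the log2 ratios at 14 DPA correlated with those at 6 DPA at a Pearson r of 0.411 (Spearman rho 0.304) and with those at 9 DPA at 0.455 (0.409). These are correlations across sequences, which are not independent replicates, and near-identical sequences can share reads. They include sequences with low counts set at 3 reads. Fewer than 12 reads in both tissues were found for 4.55% of all considered at 6 DPA and for 25.8% at 9 DPA. The values of the 2 stages are therefore not on an equal footing.

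Most transcripts first seen at 14 DPA belonged to the aleurone set, to which 17.2% of all sequences considered belonged, and 10.2% to the starchy endosperm set. The choice of both sets used the 14 DPA libraries, so these counts describe them. No read in any of the 4 younger libraries was found for 261 of the sequences considered, of which 226 were 4-fold higher in aleurone and 17 in starchy endosperm. With a limit of 3 reads in each, 943 qualified, and 712 were higher in aleurone against 152 in starchy endosperm. The 712 held 4.35% of the 14 DPA aleurone reads, at levels up to 5721 RPKM and a median of 6.61 RPKM. The 152 held 0.138% of the starchy endosperm reads, with a highest level of 344 RPKM. Of the 712, 190 had no (0) reads in 14 DPA starchy endosperm.

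Unique reads gave much the same differences. Of the 46079 sequences with 50 unique reads in the higher library, 26.7% were 4-fold apart on unique reads, 7685 towards aleurone and 4629 towards starchy endosperm. Of the 9937 aleurone sequences 7681 had that many unique reads, and 7361 of these were 4-fold higher in aleurone on unique reads also. Of the 5886 starchy endosperm sequences the numbers were 4584 and 4415. The direction turned for 1 and 2 sequences, each by less than 4-fold. For 929 aleurone and 772 starchy endosperm sequences fewer than 10% of the reads in the higher library were unique, and 153 and 103 had none, so their counts rest on reads shared with other sequences. The unique share of the starchy endosperm set was 35.5% in its own library, against 46.5% for the aleurone set in aleurone and 52.2% and 52.3% for the sequences within 4-fold.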

How the data were processed

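Per the labels' protocols, tissue was microdissected, the RNA went through linear amplification primed at the poly(A) tail, and libraries had 15 PCR cycles and were sequenced on a Genome Analyzer IIx. Aligner, counter and sequence set version: not given in the sources used here. The authors deposited, per the file headers, total and unique read counts per sequence and RPKM values. RPKM recomputed from the total counts differed from the authors' values by at most 0.0005. The authors' deposited transformed score of the 6 DPA files was not used.

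Total counts were analysed with TMM factors from edgeR 4.0.16 (R 4.3.3) over the 6 libraries, on sequences with 10 reads in 3 libraries, beside library totals. DESeq2 1.42.0 size factors were an alternative. Ratios used a floor of 3 reads. Exact 95% (Clopper-Pearson) intervals cover counting error only, as PCR copies are not told apart. With 1 library per tissue and stage there was no test. The ratio script was tested on simulated data. Named sequences were, per direction, the largest ratio with 50 unique reads and the highest level past 4-fold under both scalings and unique reads, and the 2 most abundant even sequences. The comparison, lists and rules were chosen with earlier results of these data known.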

Additional observations from a re-analysis of the deposited data

Results flagged for a closer look

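A number of sequences lay at least 4-fold apart in one direction at both younger stages and at least 4-fold apart in the other at 14 DPA. What singled them out is that the 6 and 9 DPA pairs moved one way and the 14 DPA pair the opposite way, and the difference was not tested.

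There were 141 sequences higher in starchy endosperm at 6 and 9 DPA and higher in aleurone at 14 DPA. Taken as aleurone to starchy endosperm, the median log2 ratio of the 141 was -3.80, -2.81 and 3.41 at the 3 stages. Median levels in aleurone were 0.369 RPKM at 6 DPA, 0.979 at 9 DPA and 62.7 at 14 DPA, and in starchy endosperm 5.92, 9.23 and 3.04 RPKM. Of the reads in 14 DPA aleurone they held 3.49%. Counted by unique reads, 83 of the 141 met the same rule. These values are with TMM. With library totals 15 of the 141 were lost, and 200 sequences in all met the rule.

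Another 105 sequences were higher in aleurone at both younger stages and higher in starchy endosperm at 14 DPA. They were 1.78% of the 5886 starchy endosperm sequences, beside 5.36% of all sequences considered that were 4-fold higher in aleurone at both younger stages. Their median log2 ratios were 3.87, 3.53 and -3.32. Median levels in aleurone were 20.5, 24.8 and 1.05 RPKM, and in starchy endosperm 1.14, 1.53 and 7.77 RPKM. Their share in 14 DPA starchy endosperm was 0.214%, and 67 of them met the rule on unique reads. With library totals 33 of the 105 were lost, and 82 sequences in all met the rule.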

How the results depend on the processing

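No paired analysis was possible because each tissue and stage has 1 library, and for that reason no replicate could be left out. Library totals gave 15019 aleurone calls, an aleurone share of calls of 79.1%, a median log2 ratio of 0.90, and shares of the aleurone and starchy endosperm sets with the same direction at 6 and 9 DPA of 15.5% and 32.7%. TMM on the 14 DPA libraries alone gave a share of 60.2% and a median of 0.12, DESeq2 size factors a median of 0.18, and unique reads a median of 0.20, a same-direction aleurone share of 16.7% and top 100 shares of 12.6% in aleurone and 25.03% in starchy endosperm. With a minimum of 10 reads there were 10221 starchy endosperm calls, an aleurone share of 57.2%, same-direction shares of 15.98% and 16.6%, 3306 and 798 sequences at 0 in starchy endosperm and in aleurone, and 172 sequences turning from aleurone to starchy endosperm. With 200 reads the aleurone calls were 5223, the starchy endosperm calls 3366, the aleurone share 60.8%, the same-direction shares 20.6% and 38.2%, the sequences at 0 198 and 38, and the turning ones 56. With no read minimum there were 10985 starchy endosperm calls, 55.4%, 15.98% and 15.5% for the same shares, and 184 turning. A floor of 1 read gave same-direction shares of 21.0% and 33.0% and 260 sequences turning from starchy endosperm to aleurone. Requiring the nearer exact limit to be 4 or more gave an aleurone share of 60.0%, same-direction shares of 15.2% and 24.2%, and 48 turning in each direction. Without the 100 most abundant sequences of either library the starchy endosperm same-direction share was 25.3%. Other counts stayed within 1.5 times of those reported, and aleurone calls outnumbered starchy endosperm calls in each of these alternatives. The medians of the sequences at 1000 RPKM or more under library totals and unique reads were added after seeing the data. Depth limits calls at 9 DPA most, where 3 reads equal 0.659 and 0.731 RPM.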

Other observations

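Short sequences leaned more to aleurone than long ones at 14 DPA. The median log2 ratio of aleurone to starchy endosperm with TMM was 0.41 for the 974 sequences under 300 bases, 0.22 for the 19289 from 700 to 999 bases and -0.14 for the 3921 of 1500 bases or more. Calls at 4-fold with TMM in the aleurone direction were 23.1%, 16.9% and 11.3% of these classes, and in the starchy endosperm direction 11.1%, 9.62% and 8.67%. With library totals each median is higher by 0.69, which keeps their order and makes that of the longest class positive. Whether RNA integrity or the amplification from the poly(A) end differed between the preparations was not tested. By kind of identifier, 17.1% of the 42253 sequences named with TC and 17.4% of the 15666 others were 4-fold higher in aleurone, and 9.54% and 11.8% were 4-fold higher in starchy endosperm.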
